A study of Brassica rapa subsp. pekinensis with 6 samples.

Results

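The transcripts described here are 1644 of the 57931 linear transcripts listed for germinated seeds of Chinese cabbage (Brassica rapa ssp. pekinensis). They were assembled transcripts of class code u, which the assembler gives to a transcript that overlaps no annotated gene. Each was at least 200 bp long and more than 2000 bp from the nearest listed transcript of the reference annotation (class code 0, taken as mRNAs) on the same chromosome. They are called far class u transcripts below. The other 1424 class u transcripts of that length lay within 2000 bp of a listed mRNA, and 33354 transcripts were mRNAs.

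All seeds were of 'FT', a double haploid line, with 20 seeds in a culture dish as 1 biological repetition, and there were 3 non-vernalized (Nor) and 3 vernalized (Ver) libraries. The Ver seeds spent 25 days at 4 °C after germination, and the Nor seeds about 48 h at room temperature, in darkness for each of these periods. Both were sampled at the same length, so that age and temperature cannot be told apart, and whole seeds were read as a mixture of tissues. Ribosomal RNA was removed before strand-specific sequencing, and counts per library ran from 83976912 to 104903263.

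Long non-coding RNAs (lncRNAs) are transcripts of at least the length used here with no evident protein product. In Arabidopsis, lncRNAs made at the locus of FLOWERING LOCUS C (FLC), the repressor of flowering that cold silences, are known to take part in vernalization. Intergenic lncRNAs are those with a transcription unit of their own, and they include precursors of microRNAs and transcripts from repeats and from genes an annotation lacks.

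Among the far class u transcripts, MSTRG.25070.1 was the only one for which the study designed qRT-PCR primers, and the pair is shown because it is the only sequence of a member held by the sources used here. MSTRG.25070.1 is a single-exon transcript of 835 bp on the minus strand of chromosome A09, from 10140445 to 10141279 (B. rapa v3.0), 6082 bp from the nearest mRNA. By the gene bounds of another annotation, RefSeq, it overlaps the protein-coding gene LOC103838542 and the pseudogene LOC108871659. Both primers are written 5′ to 3′ in lower case, with no part set in capitals.
MSTRG.25070.1 forward primer: cttccgacccaagaaacagc
MSTRG.25070.1 reverse primer: cgttgatgacgagaaaccgac
In the libraries, MSTRG.25070.1 had 29, 94 and 51 counts across Nor 1 to Nor 3, against 227, 180 and 215 counts across Ver 1 to Ver 3. All Ver values lay above all Nor values. Its log2 fold change was 1.77 ± 0.53 (SE), with an edgeR p of 0.019 and an adjusted p of 0.063, so that it was called only without adjustment. The call was lost without Nor 3 (log2 fold change 1.62) or without Ver 1 (1.67), and the value was 2.44 without Nor 2. The study reports that the RNAs it checked by qRT-PCR changed as in its sequencing, and those values were not read here.

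By the gene bounds of another annotation, many of these transcripts were not intergenic. The gene bounds of RefSeq (assembly CAAS_Brap_v3.01) were laid over them, after 93.9% of the listed mRNAs were found to overlap a RefSeq protein-coding gene, against 68.4% after a shift of 100 kb. Towards the end of each chromosome, 60.2% (A03) to 94.9% (A07) of the mRNAs lay inside a RefSeq protein-coding gene. A RefSeq protein-coding gene was overlapped by 845 far class u transcripts (51.4%), of which 488 lay wholly inside 1 such gene. A further 304 (18.5%) overlapped RefSeq lncRNA genes only, 72 overlapped a gene of a structural or small RNA, 37 a pseudogene, and 386 (23.5%) no RefSeq gene. Among the 1424 nearer class u transcripts, 73.0% overlapped a RefSeq protein-coding gene and 12.1% no RefSeq gene. The RefSeq table gives neither strand nor exons, so that sense, antisense and intronic overlap could not be separated, and the coding potential filters of the study were not repeated. No chance level of overlap was computed for the members.

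By exon number, 712 far class u transcripts (43.3%) had 1 exon, 370 had 2, 228 had 3 and 334 had 4 or more. A single exon was found in 36.0% of the nearer class u transcripts and 23.0% of the mRNAs. The median length was 899 bp, against 831 bp for the nearer class u transcripts and 1035 bp for the mRNAs, and it was 596 bp for single-exon and 1194 bp for multi-exon members. Of the 386 transcripts that overlapped no RefSeq gene, 278 had a single exon, as did 291 of the 845 that overlapped a RefSeq protein-coding gene. The strand was + for 535, − for 578 and not given for 531, all of which were single-exon transcripts.

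**Figure D1:**
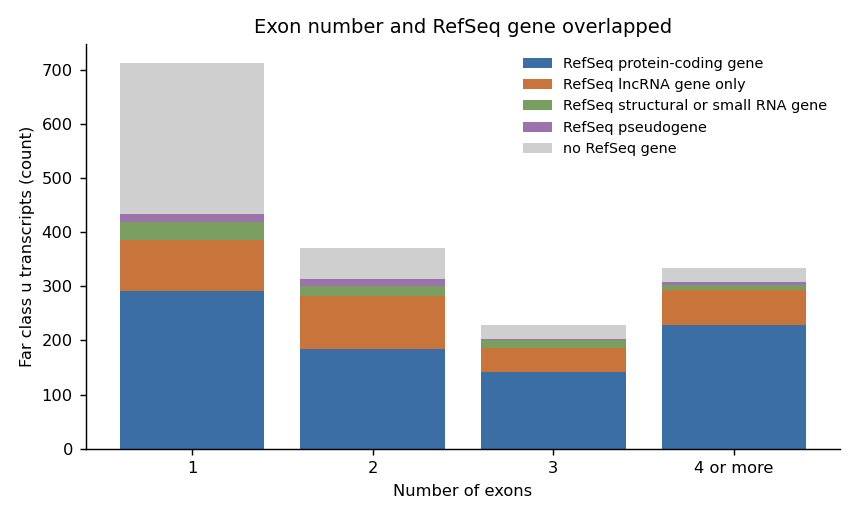
The bars count far class u transcripts (y axis) by number of exons (x axis), divided by the kind of RefSeq gene that each overlaps. Of the 712 single-exon transcripts 278 overlap no RefSeq gene, whereas 554 of the 932 with 2 or more exons overlap a protein-coding gene.

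The transcripts with the most exons were MSTRG.1934.1 and MSTRG.1934.2, with 23 exons each on chromosome A01, and MSTRG.24382.1, with 22 exons on chromosome A09. All 3 lay over RefSeq protein-coding genes. MSTRG.24382.1 had 4076, 1478 and 1315 counts across the Nor libraries against 3113, 4279 and 4668 across the Ver libraries. These groups overlapped, and its log2 fold change of 0.81 ± 0.46 (SE) was not called (edgeR adjusted p = 0.272). Without Nor 1 it was called higher, with a log2 fold change of 1.45. The longest member, MSTRG.10429.1 on chromosome A04, was a single exon of 12977 bp over no RefSeq gene. It had 75129, 1378 and 1164 counts across the Nor libraries against 69300, 395 and 82383 across the Ver libraries, and the groups overlapped.

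The gap to the nearest listed mRNA had a median of 5246 bp. It was at most 5000 bp for 767 transcripts, above that and up to 10000 bp for 501, above that and up to 50 kb for 333, and larger for 43. The threshold fell between MSTRG.1484.3 and MSTRG.1484.4, both at 2003 bp, and MSTRG.27799.1 and MSTRG.8125.1, at 1984 and 1977 bp. MSTRG.1484.3 had between 0 and 62 counts in a library and MSTRG.1484.4 between 0 and 540, while MSTRG.27799.1 had between 139 and 209 and MSTRG.8125.1 between 455 and 694. With every listed class other than u taken as a neighbour, 1476 still had a gap above 2000 bp. The largest gaps, 207019 bp for MSTRG.10388.1, 202535 bp for MSTRG.10391.3 and 199270 bp for MSTRG.10392.9, lay at the end of chromosome A03. The last 2 overlap RefSeq rRNA genes, and 19 of the 43 gaps above 50 kb were on A03. MSTRG.10388.1, over a RefSeq lncRNA gene, had 62, 43 and 44 counts across the Nor libraries against 96, 60 and 91 across the Ver libraries, and was not called (log2 fold change 0.72 ± 0.30, SE, edgeR adjusted p = 0.143). MSTRG.10392.9 had 110, 2089 and 0 counts across the Nor libraries against 83683, 14 and 52 across the Ver libraries, so that Ver 1 stood apart from its group.

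Far class u transcripts were found on all 10 chromosomes, from 94 on A10 to 279 on A09. Per 100 listed mRNAs, they numbered from 3.47 on A03 to 6.64 on A04. Single-exon transcripts formed 32.8% of those on A01 and 55.2% of those on A08. The 279 on A09 came from 192 loci, since the assembler wrote several isoforms for some loci. In all, 1189 loci held the 1644 transcripts, and 1008 loci held 1 each. When members less than 10000 bp apart were joined, 4 clusters held 20 or more members, and the one with the most, on A01, held 72 within 44130 bp.

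**Figure D2:**
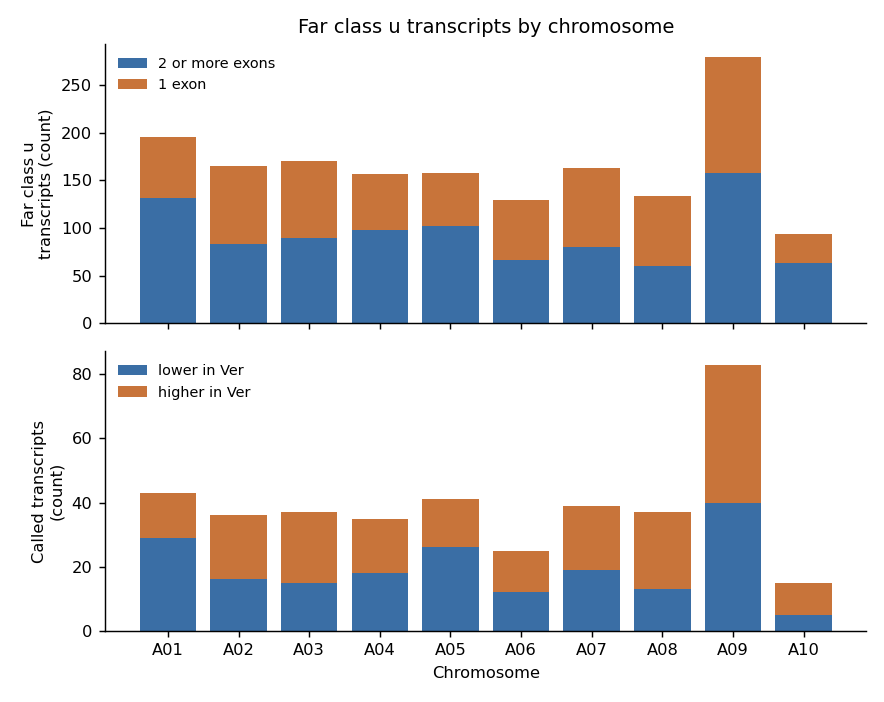
The upper bars count far class u transcripts per chromosome, divided into single-exon and multi-exon, and the lower bars count those called higher or lower in Ver. Chromosome A09 holds 279, of which 43 were called higher and 40 lower, and A10 holds 94, of which 10 were called higher and 5 lower.

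Levels per length are given as FPKM. The median FPKM (sequenced fragments scaled to transcript length and library size) of the far class u transcripts was 0.989, 0.972 and 0.98 across Nor 1 to Nor 3, against 1.08, 1.08 and 1.05 across Ver 1 to Ver 3. It was below that of the nearer class u transcripts, which ran from 1.21 to 1.35, in 6 of 6 libraries, and above that of the mRNAs, which ran from 0.913 to 0.945. Among transcripts detected in a library the order differed, with medians of 1.15 to 1.25 for the far class u transcripts, 1.34 to 1.49 for the nearer ones and 1.44 to 1.54 for the mRNAs. The single-exon members had a median of 0.873 to 0.918 across the Nor libraries, and of 1.03 to 1.04 across the Ver libraries. The members over no RefSeq gene had a median of 0.717, 0.813 and 0.689 across the Nor libraries, and of 1.01, 1.02 and 1.02 across the Ver libraries, and did not overlap between the groups. Those over a RefSeq protein-coding gene went the other way, with 1.11 to 1.16 across the Nor and 1.04 to 1.05 in the Ver libraries. These medians are descriptions with no test, since 3 libraries against 3 cannot give an exact permutation p below 0.1.

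An FPKM above 0 was found for 1476, 1452 and 1449 far class u transcripts across Nor 1 to Nor 3, and for 1440, 1448 and 1466 across Ver 1 to Ver 3, so that the groups overlapped. In all 6 libraries, 1214 were detected (73.8%), and 64 were detected in 1 library only. Detection in all 6 libraries was reached by 82.4% of the single-exon and 67.3% of the multi-exon members.

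A few members carried the counts. The member with the most counts held 33.2% of all counts of the far class u transcripts, and the first 5 held 55.3%. It was MSTRG.16980.8, a transcript of 12391 bp in 5 exons on chromosome A06 over a RefSeq protein-coding gene and a tRNA gene, and its share of all counts was 1.52%, 1.79% and 2.24% across the Nor libraries against 1.68%, 0.994% and 1.82% across the Ver libraries. The highest mean FPKM, 13921, was that of MSTRG.11785.1, a single exon of 304 bp on the minus strand of chromosome A04, from 16656104 to 16656407, over the RefSeq protein-coding gene LOC117133718. It had 594875, 479445 and 644461 counts across the Nor libraries against 503701, 579870 and 525054 across the Ver libraries, and its log2 fold change was −0.10 ± 0.07 (SE, edgeR adjusted p = 0.356).

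The next 4 by mean FPKM were MSTRG.10392.6 (2212), MSTRG.8999.1 (2107), MSTRG.18639.1 (1385) and MSTRG.10391.1 (1155). MSTRG.8999.1, over RefSeq protein-coding genes on A03, had 165887, 132881 and 165329 counts across the Nor libraries against 110168, 104995 and 118637 across the Ver libraries. The groups did not overlap, and the log2 fold change of −0.49 ± 0.04 (SE, edgeR adjusted p = 0.000897) was below the size required for a call. MSTRG.18639.1, over a tRNA gene for methionine, had 102025 to 115066 counts across the Nor libraries against 116150 to 123362 across the Ver libraries. MSTRG.10392.6 and MSTRG.10391.1 lie over RefSeq rRNA genes, the class of RNA that the depletion targets. MSTRG.10392.6 had 289393, 4099 and 510681 counts across the Nor libraries against 2342, 625694 and 92463 across the Ver libraries. MSTRG.10391.1 was not called (edgeR adjusted p = 0.309), but without Ver 2 it was called lower, with a log2 fold change of −1.28.

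The share of a library that fell on far class u transcripts was 5.03%, 5.19% and 6.17% across Nor 1 to Nor 3, against 4.78%, 4.34% and 4.72% across Ver 1 to Ver 3. Every Ver value was below every Nor value, with means of 5.46% ± 0.62 (SD, n = 3) and 4.61% ± 0.241 (SD, n = 3). The difference of −0.851 percentage points was −0.496 without Nor 3, and −0.439 without the 5 members with the most counts, when the groups overlapped. As a share of summed FPKM it was 5.16%, 4.87% and 5.66% across Nor against 4.5%, 4.92% and 4.41% across Ver, which overlap. Single-exon members held 1.44%, 1.41% and 1.38% of the counts across Nor against 1.44%, 1.5% and 1.56% across Ver. Members over RefSeq protein-coding genes held 3.92%, 4.37% and 5.11% across the Nor libraries against 3.44%, 2.82% and 3.72% across the Ver libraries. Members over RefSeq rRNA genes held between 0.244% (Ver 1) and 0.926% (Ver 2), and their part in the result was not tested. Members over no RefSeq gene held 0.274%, 0.231% and 0.202% across the Nor libraries against 0.314%, 0.288% and 0.344% across the Ver libraries.

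The comparison of Ver with Nor asked which of these transcripts differ after cold. Of the 1644 far class u transcripts 1432 passed the count filter, and a transcript was called where its log2 fold change exceeded 1 in size with an edgeR p, before adjustment, no larger than 0.05. Called were 391, or 27.3% of those tested, against 16.6% of all 49351 transcripts tested and 18.5% of the nearer class u transcripts. Higher in Ver were 198, against a background of 8.34%, and lower were 193, against 8.25%. With an adjusted p of at most 0.05, 149 were higher (background 6.35%) and 150 lower (background 6.48%), or 20.9% in all, against 12.8% of all transcripts. The groups did not overlap for 51.2% of the tested members and for 47.4% of all transcripts. The median log2 fold change was 0.06 for the members and 0.01 over all transcripts, and the median of its absolute value was 0.68 and 0.51. The 212 untested members included 17 with a mean of at least 1000 counts, such as MSTRG.16980.42 (246179, 0 and 352673 counts across Nor, 0 in every Ver library), and a member that passed the filter only through the group where it is high had to differ.

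**Figure D3:**
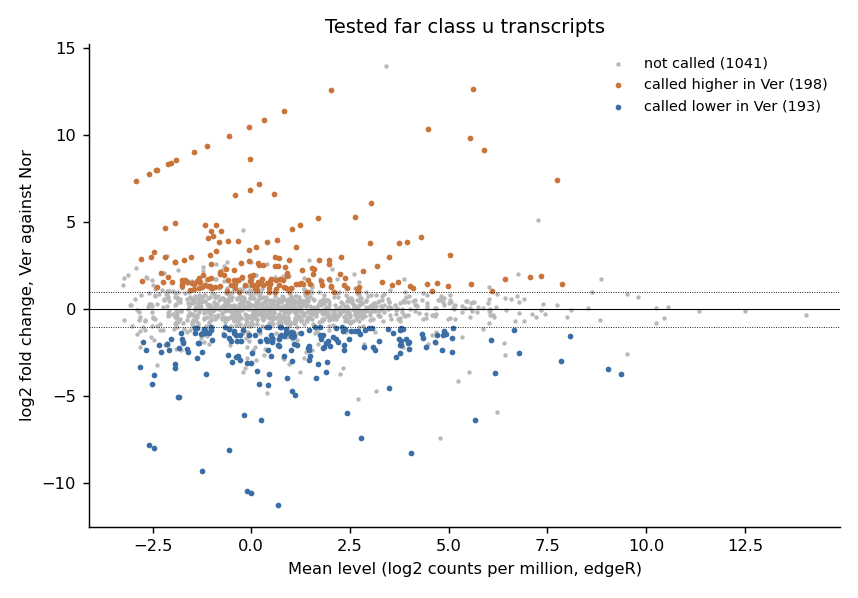
Each point is 1 of the 1432 tested far class u transcripts, with its mean level (log2 CPM, counts scaled to library size) on the x axis and its log2 fold change of Ver against Nor on the y axis. The 198 called higher and 193 called lower are coloured, and dotted lines mark a log2 fold change of 1 and −1.

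The calls are given next by what the members overlapped. Over all transcripts tested, 8.34% were called higher and 8.25% lower, together 16.6%. Of the 731 tested members over a RefSeq protein-coding gene, 82 were called higher and 135 lower, together 29.7%. Of the 335 over no RefSeq gene, 68 were called higher and 28 lower, and of the 276 over RefSeq lncRNA genes only, 40 were called higher and 18 lower. Single-exon members had 109 calls higher and 81 lower among 645 tested, and multi-exon members 89 higher and 112 lower among 787. These are counts with no test of the difference, and isoforms of a locus are counted separately. The 7 loci with 10 or more members all lay over RefSeq protein-coding genes, and most of their calls were falls. Without these loci, 197 members in all were called higher and 147 lower, against 198 and 193 with them. By chromosome the called share ran from 17.6% on A10 to 34.6% on A09, and the shares of all transcripts by chromosome were not computed. On A09, 12 of the 40 members called lower were isoforms of MSTRG.26392. On A01, 29 of 43 called members were lower. Of these 29, 5 were isoforms of MSTRG.1484 and 13 of MSTRG.1485, on opposite strands of the same span. By gap the called share was 26% up to 5000 bp, 28.7% up to 10000 bp, 29.2% up to 50 kb and 20.6% above, where 34 were tested.

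Isoforms that share a locus varied more between libraries of the same group than transcripts alone in their locus. A member that was the only transcript of its locus had a median coefficient of variation of 10.4% between the Nor libraries and 9.28% between the Ver libraries (464 and 495 members with at least 100 counts on average). A member that shared its locus with other transcripts had one of 39.8% and 33.3% (420 and 377 members). The sums over those loci were back at 10.2% and 9.73% (188 loci). Of the 130 called members from loci with 2 or more transcripts, 93 had a locus sum that was called the same way, and 13 had a locus sum that moved the other way. The remaining 261 called members were alone in their locus.

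MSTRG.1934.1 and MSTRG.1934.2 show this. The first had 2768, 785 and 1631 counts across the Nor libraries against 5031, 5218 and 2674 across the Ver libraries, and the second had 3067, 3960 and 4296 across the Nor libraries against 0, 0 and 3168 across the Ver libraries. MSTRG.1934.1 was called higher, with a log2 fold change of 1.35 ± 0.49 (SE, edgeR adjusted p = 0.106), which passed only without adjustment. The call was lost without Nor 2 (1.04), Nor 3 (1.29), Ver 1 (1.20) or Ver 2 (1.20). It was also lost with limma on log2(FPKM + 1) (0.96) and with the replicate block (1.40), and kept with DESeq2 (1.35) and limma on log2(FPKM + 0.1) (1.35). MSTRG.1934.2 was not called (edgeR adjusted p = 0.648), but was called lower without Ver 3, when both remaining Ver libraries were at 0. It was also called lower by limma on log2(FPKM + 1) (−1.53) and log2(FPKM + 0.1) (−3.55), but not by the robust fit (−1.92) or with the replicate block (−8.81). The sum of the locus was 5597, 5358 and 5602 normalized counts across the Nor libraries against 5164, 5229 and 5608 across the Ver libraries, a log2 fold change of −0.04 ± 0.04 (SE).

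**Figure D4:**
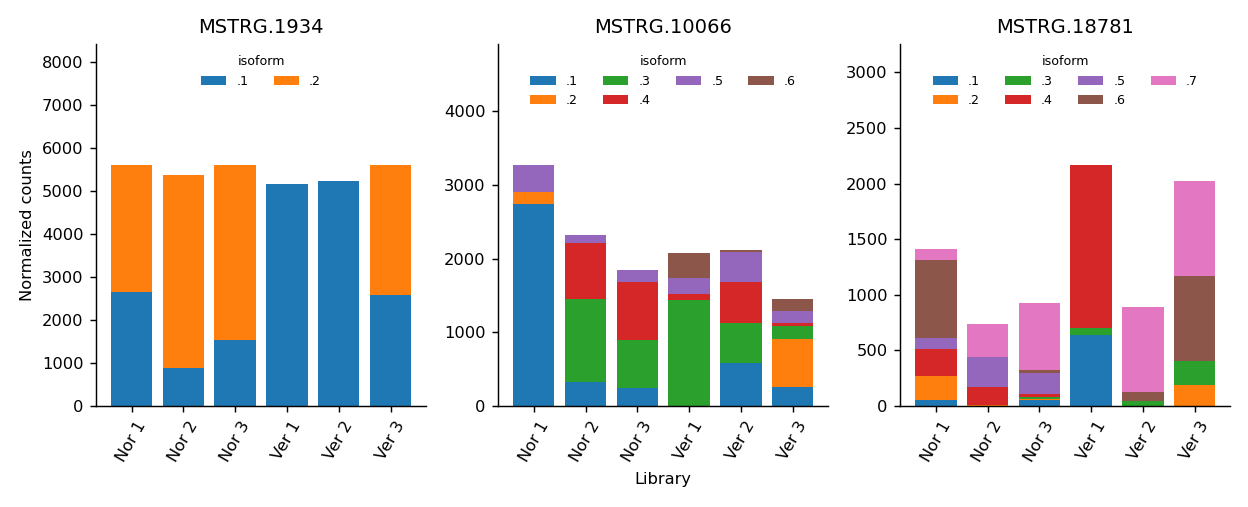
Stacked bars give the normalized counts (y axis) of each isoform in each library (x axis) for 3 loci whose transcripts are all far class u transcripts. The sum for MSTRG.1934 stays between 5164 and 5608 while its isoforms change places, and those for MSTRG.10066 and MSTRG.18781 run from 1453 to 3277 and from 741 to 2171.

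Summed over loci, 1108 loci that hold a far class u transcript were tested, of which 178 were called higher (background 9.18%) and 143 lower (background 9.81%). These are 29% of them, against 19% of all 32467 loci tested. The loci described next had the largest changes among those that passed adjustment, whose groups did not overlap and that had at least 300 normalized counts in the higher group, and this choice was made after their values were seen.

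A pair of neighbouring loci on the plus strand of chromosome A09 led the rises. MSTRG.24675, from 5841294 to 5857913, had 5 isoforms of 9 to 15 exons over the RefSeq protein-coding genes LOC117127658 and LOC103847977, and no isoform was closer than 4056 bp to a listed mRNA. Its isoforms summed to 343, 239 and 326 counts across the Nor libraries against 61155, 63317 and 67934 across the Ver libraries. The log2 fold change of the sum was 7.73 ± 0.08 (SE), with an edgeR adjusted p of 1.93e-11, and all 5 isoforms were called higher. MSTRG.24672, from 5821318 to 5824081 over the protein-coding gene LOC103847975, had 0, 35 and 0 counts across the Nor libraries against 14151, 12614 and 17607 across the Ver libraries. Its log2 fold change was 10.28 ± 0.49 (SE, edgeR adjusted p = 1.8e-07).

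MSTRG.22099 on A08, over the protein-coding gene LOC103833498, with 2 far class u transcripts among its 3 isoforms, summed to 396, 355 and 372 counts across the Nor libraries against 6339, 6574 and 7496 across the Ver libraries, a log2 fold change of 4.18 ± 0.07 (SE, edgeR adjusted p = 1.7e-10). The other rises of this group were smaller. MSTRG.24345 on A09 (3 exons) rose by a log2 fold change of 3.83, MSTRG.25855 on A09 (2 exons) by 3.61 and MSTRG.30322 on A10 (2 exons) by 3.13, and these lay over RefSeq protein-coding genes. MSTRG.4881 and MSTRG.5303 on A02 were single exons over no RefSeq gene. MSTRG.4881, from 15969897 to 15972949, had 213, 208 and 278 counts across the Nor libraries against 1875, 1901 and 1973 across the Ver libraries. Its log2 fold change was 3.04 ± 0.10 (SE, edgeR adjusted p = 1.61e-08), and that of MSTRG.5303 was 3.04 ± 0.21 (SE).

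The falls were led by MSTRG.22762 on the minus strand of chromosome A08, from 15899740 to 15901211, a transcript of 2 exons over the RefSeq protein-coding gene LOC103834961. It had 10213, 8318 and 9907 counts across the Nor libraries against 87, 117 and 145 across the Ver libraries. The log2 fold change was −6.35 ± 0.11 (SE), with an edgeR adjusted p of 3.4e-10. The most abundant of the falling loci, MSTRG.8028 on A03 (12 exons, over LOC103860090), had 122614, 102720 and 123170 counts across the Nor libraries against 8505, 8668 and 9308 across the Ver libraries, a log2 fold change of −3.72 ± 0.04 (SE, edgeR adjusted p = 1.77e-11). Further falls over protein-coding genes were those of MSTRG.25181 on A09 (−4.69), MSTRG.11250 on A04 (−4.51), MSTRG.5650 on A02 (−3.64), MSTRG.7880 on A03 (−3.61) and MSTRG.26789 on A09 (−3.58), all on the log2 scale. MSTRG.5546, a single exon on A02 over no RefSeq gene, had 363, 312 and 306 counts across the Nor libraries against 29, 16 and 18 across the Ver libraries, a log2 fold change of −3.96 ± 0.25 (SE, edgeR adjusted p = 1.11e-06).

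**Figure D5:**
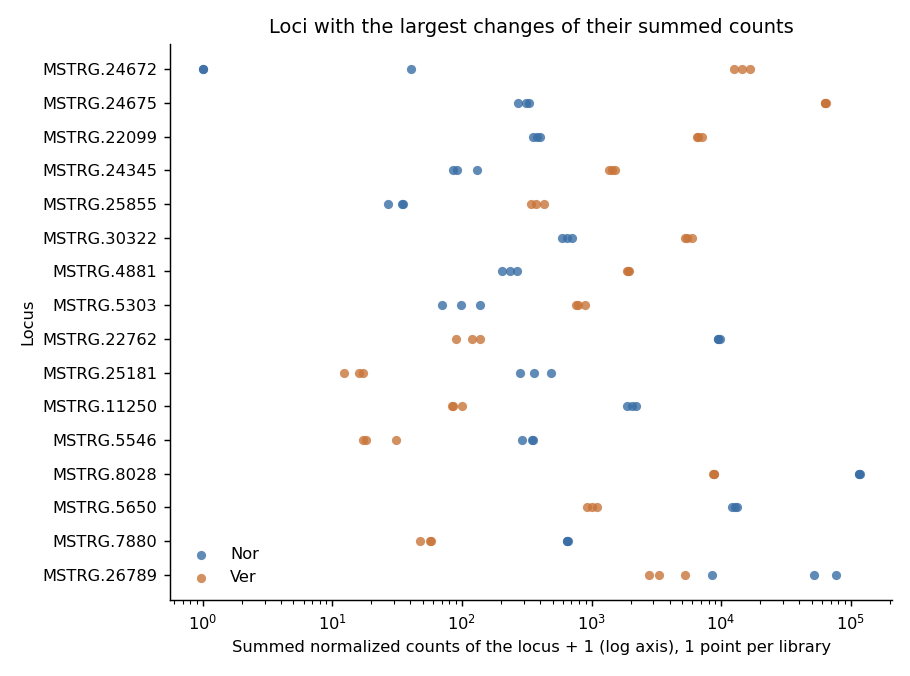
Each point is the sum of the normalized counts of a locus in 1 library plus 1, on a log axis, for the 8 loci that rose most and the 8 that fell most under the rule given in the text. The Nor and Ver points do not overlap at any of these loci, which was required, and MSTRG.24675 goes from a mean of 302 to 63810.

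Some members were near 0 in 1 group. At most 3 counts in each library of 1 group and at least 30 in each of the other were found for 15 members, of which 10 were present in Ver. The same count over all transcripts was not made, so these numbers are descriptions only. Members picked in this way had to differ between the groups. Bounds are given against a floor of 3 counts in each library. MSTRG.5062.1, a single exon on A02 over no RefSeq gene and alone in its locus, had 0 counts in every Nor library and 218, 174 and 312 across the Ver libraries, and was at least 76.7-fold higher in Ver. MSTRG.10954.1 on A04 had 101, 78 and 72 counts in Ver and 0 in every Nor library (at least 27.6-fold higher), and lay 51838 bp from the nearest listed mRNA. MSTRG.13867.1 on A05 had 68, 61 and 71 counts in Ver and 0 in every Nor library (at least 21.9-fold higher), at a gap of 62984 bp. In the other direction, MSTRG.5072.1 on A02, of 220 bp, had 12, 49 and 27 counts across the Nor libraries and 0 in every Ver library, and was at least 10.3-fold lower in Ver (6.2-fold without Nor 2). These 4 overlap no RefSeq gene and were alone in their loci.

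Other named members near 0 in 1 group shared their locus with further isoforms. MSTRG.1344.1 on A01, of 12 exons, had 0 counts across the Nor libraries against 448, 1310 and 561 across the Ver libraries (at least 254-fold higher, or 165-fold without Ver 2), but the sum of its locus had a log2 fold change of 0.09 and was not called. MSTRG.27703.2 on A09 was at least 111-fold higher, with a locus log2 fold change of 0.92. MSTRG.21946.4 on A08, with 0 counts across the Nor libraries against 123, 39 and 220 across the Ver libraries, was at least 41.4-fold higher (27.2-fold without Ver 3), with a locus log2 fold change of −0.02. MSTRG.4248.3 on A02, with 544, 144 and 233 counts across the Nor libraries against 0 across the Ver libraries, was at least 101-fold lower (64.1-fold without Nor 1), with a locus log2 fold change of 0.74. MSTRG.6925.2 on A03 was at least 25.7-fold lower, with one of 0.00. MSTRG.11249.1 on A04 was at least 58.8-fold higher and the sum of its locus was called higher too, with a log2 fold change of 2.37. Of the largest changes of single members, MSTRG.24672.2 and MSTRG.24675.4 belong to the A09 loci above, and MSTRG.5483.2 on A02, with 221, 235 and 192 counts across the Nor libraries against 0, 0 and 8 across the Ver libraries, to a locus whose sum was called lower, with a log2 fold change of −1.22.

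Members over RefSeq microRNA genes were 16 from 9 loci, and these are described by that annotation and not by their values. MicroRNAs are cut from longer primary transcripts, which an assembler can list as lncRNAs. In Arabidopsis, miR156 holds back the change from juvenile to adult growth through SPL transcription factors, miR167 targets auxin response factors, and miR168 targets AGO1, the protein that carries microRNAs. MSTRG.17593.1, of 2 exons on the minus strand of chromosome A06 from 22681013 to 22686392, overlaps MIR156B, MIR156D and a protein-coding gene. It had 4178, 3194 and 3915 counts across the Nor libraries against 995, 970 and 1165 across the Ver libraries, and all Ver values were below all Nor values. The log2 fold change was −1.86 ± 0.08 (SE), with an edgeR adjusted p of 8.24e-05. On the other strand of an overlapping span, MSTRG.17594.2 had 249, 217 and 270 counts across the Nor libraries against 70, 67 and 124 across the Ver libraries, a log2 fold change of −1.52 ± 0.28 (SE, edgeR adjusted p = 0.0133), and the sum of its locus had one of −1.54.

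The other loci over miR156 genes were not called as sums. The 6 isoforms of MSTRG.10066 on A03, over MIR156C, summed to 3277, 2320 and 1842 normalized counts across the Nor libraries against 2083, 2113 and 1453 across the Ver libraries, which overlap. The log2 fold change of the sum was −0.39 ± 0.21 (SE, edgeR adjusted p = 0.139), while 1 isoform, MSTRG.10066.6, had 1, 0 and 0 counts across the Nor libraries against 340, 29 and 178 across the Ver libraries and was called higher. The locus MSTRG.27378 on A09, over MIR156F, with 2 far class u transcripts among its 3 isoforms, summed to 693, 620 and 710 normalized counts across the Nor libraries against 1316, 1118 and 1372 across the Ver libraries. Its log2 fold change of 0.92 ± 0.10 (SE, edgeR adjusted p = 4.54e-05) was just below the size required for a call.

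Over MIR168C on A03, the single-exon MSTRG.9519.1 had 145, 106 and 146 counts across the Nor libraries against 45, 62 and 38 across the Ver libraries, a log2 fold change of −1.45 ± 0.27 (SE, edgeR adjusted p = 0.0146). Over MIR5716 on A09, MSTRG.24135.1 had 1546, 1144 and 1486 counts across the Nor libraries against 254, 292 and 270 across the Ver libraries, a log2 fold change of −2.36 ± 0.10 (SE, edgeR adjusted p = 9.28e-05). The members over MIR167A and MIR167B had log2 fold changes of 0.33 ± 0.26 and 0.21 ± 0.19 (SE), and that over MIR158 one of −0.08 ± 0.23 (SE), and none of the 3 was called. In all, 1 of the 14 tested members over microRNA genes was called higher and 4 lower. Of the 26 tested members over snoRNA genes 4 were called higher and 2 lower, of 10 over snRNA genes 2 higher and 0 lower, and of 10 over tRNA genes 0 higher and 1 lower. Among all tested transcripts 8.34% were called higher and 8.25% lower, and with so few members these counts are descriptions only.

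The 7 loci with 10 or more members held 159 of the 1644 transcripts, and the sums of all 7 fell. Of these, 6 were pairs on opposite strands of the same span. On A01 from 10260988 to 10305117, MSTRG.1484 (+, 37 members) summed to 6821, 6825 and 8820 normalized counts across the Nor libraries against 2455, 1980 and 1923 across the Ver libraries, a log2 fold change of −1.81 ± 0.12 (SE, edgeR adjusted p = 1.72e-06). MSTRG.1485 (−, 35 members) summed to 6758, 5921 and 10228 across the Nor and 1232, 685 and 921 in the Ver libraries, a log2 fold change of −3.00 ± 0.25 (SE, edgeR adjusted p = 7.41e-06). Of their isoforms, MSTRG.1485.18 had 190, 161 and 2794 counts across the Nor and 18, 21 and 8 in the Ver libraries, so that Nor 3 stood apart, and its log2 fold change of −5.98 was −3.52 without it. MSTRG.1485.32 was at least 57.9-fold and MSTRG.1484.20 at least 54.1-fold lower in Ver.

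On A04 from 3487690 to 3490732, MSTRG.10744 (−, 18 members) summed to 79389, 71363 and 77079 normalized counts across the Nor and 23594, 20749 and 21261 in the Ver libraries (log2 fold change −1.79 ± 0.06, SE), and MSTRG.10743 (+, 16 members) had a log2 fold change of −1.62 ± 0.32 (SE). On A09 from 30930253 to 30933405, MSTRG.26391 (+, 19 members) and MSTRG.26392 (−, 14 members) had log2 fold changes of −2.17 ± 0.25 and −1.56 ± 0.06 (SE). On A05 from 11273833 to 11290692, MSTRG.13726 (−, 20 members) had one of −1.47 ± 0.05 (SE), and its isoform MSTRG.13726.11, with 277, 28 and 82 counts across the Nor libraries against 1, 0 and 0 across the Ver libraries, was at least 41.8-fold lower (18.3-fold without Nor 1). The edgeR adjusted p of these 5 sums ran from 1.58e-08 to 0.00193. All 7 loci lay over RefSeq protein-coding genes, and values of single isoforms there are uncertain where the counting could split reads between near-identical transcripts.

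The nearest listed mRNA of the far class u transcripts was 1 of 1040, of which 793 were tested, 72 called higher and 88 lower, together 20.2%. Of all tested mRNAs, 8.42% were called higher and 9.39% lower, together 17.8%. Members called higher had a tested nearest mRNA in 153 cases, of which 25 were called higher and 17 lower. Members called lower had one in 143 cases, of which 5 were called higher and 25 lower, and members that were not called had one in 772 cases, of which 66 were called higher and 78 lower. Members of a locus share their neighbour, so these are counts with no test. The mRNA nearest to the leading fall MSTRG.22762.1, described as dirigent protein 6-like, had a log2 fold change of 0.11 (edgeR adjusted p = 0.498), and the mRNA nearest to MSTRG.24675.4 one of 0.06 (edgeR adjusted p = 0.831).

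The neighbours described as cold-regulated or as MADS-box proteins, the family of FLC, were looked up after the values were seen. The 7 isoforms of MSTRG.18781 on A07 lay between 2508 and 2533 bp from BraA07g004890.3C, described as cold-regulated 413 plasma membrane protein 1. That mRNA had 5705, 4918 and 6369 counts across the Nor libraries against 31988, 31305 and 30827 across the Ver libraries, a log2 fold change of 2.46 ± 0.06 (SE, edgeR adjusted p = 1.64e-05). The sum of MSTRG.18781 was 1410, 741 and 923 normalized counts across the Nor libraries against 2171, 887 and 2023 across the Ver libraries, which overlap, with a log2 fold change of 0.74 ± 0.33 (SE, edgeR adjusted p = 0.0854). Its isoform MSTRG.18781.5 had 104, 239 and 195 counts across the Nor libraries against 0 across the Ver libraries. Another isoform, MSTRG.18781.3, had 0, 0 and 14 counts across Nor against 56, 38 and 226 across Ver. It was called higher only without adjustment (log2 fold change 4.5 ± 1.72, SE, edgeR adjusted p = 0.119). MSTRG.17257.1, a single exon on A06 at 2421 bp from an mRNA described as AGL27, had 43, 34 and 24 counts across the Nor libraries against 4, 12 and 4 across the Ver libraries, a log2 fold change of −2.34 ± 0.59 (SE, edgeR adjusted p = 0.0385). That mRNA had one of −0.10 ± 0.34 (SE). MSTRG.19292.1, a single exon on A07 at 13751 bp from an mRNA described as AGL80, had 50, 61 and 51 counts across the Nor libraries against 24, 20 and 17 across the Ver libraries, a log2 fold change of −1.43 ± 0.31 (SE, edgeR adjusted p = 0.0232), and that mRNA one of −0.48 ± 0.52 (SE). Other members with such neighbours were not called. MSTRG.18780.1, beside the same cold-regulated 413 mRNA, had a log2 fold change of 0.67 ± 0.28 (SE, edgeR adjusted p = 0.148). MSTRG.13047.1 had one of −0.61 ± 0.18 (SE, edgeR adjusted p = 0.0638), and the mRNA beside it, described as AGL80, one of −0.04. MSTRG.19166.1 and MSTRG.19168.1 on A07 had log2 fold changes of 0.67 ± 0.22 and −0.10 ± 0.28 (SE), beside BraA07g012310.3C, described as an AGL9 homolog. That mRNA had 8, 0 and 0 counts across the Nor libraries against 40, 78 and 55 across the Ver libraries, a log2 fold change of 4.39 ± 1.39 (SE, edgeR adjusted p = 0.073).

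The study's network of competing RNAs listed 23 of the far class u transcripts, which were chosen there as differing on these same libraries, so that their direction is not independent evidence. Of the 20 tested, 11 were called higher and 7 lower, and 15 of the 23 were alone in their locus. MSTRG.17111.1 on A06, over a protein-coding gene and a snoRNA gene, had 4180, 3283 and 3625 counts across the Nor libraries against 12749, 13142 and 11800 across the Ver libraries (log2 fold change 1.75 ± 0.09, SE, edgeR adjusted p = 0.000163). MSTRG.15946.1 on A06, over no RefSeq gene, had 600, 563 and 682 counts across Nor against 1910, 1762 and 1950 across Ver (1.59 ± 0.08, SE, adjusted p = 0.000157). MSTRG.23928.1 on A09, over no RefSeq gene, had 425, 367 and 465 counts across Nor against 104, 91 and 74 across Ver (−2.23 ± 0.20, SE, adjusted p = 0.00114). The remaining called ones had log2 fold changes from 1.74 to 4.64 and from −4.37 to −1.79. The one at 4.64, MSTRG.7620.4, was at 5.78 without Nor 3, and the sum of its locus was at 1.69.

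Some of the 23 were less firm. MSTRG.29218.2 and MSTRG.29218.3 on A10 were called in opposite directions, at 3.99 ± 1.33 and −4.37 ± 1.53 (SE, edgeR adjusted p = 0.0835 and 0.0958), within a locus whose sum had a log2 fold change of 0.18. The first lost its call without Nor 2 (4.22), Nor 3 (4.61), Ver 1 (3.92), Ver 2 (3.85) or Ver 3 (4.18), and was 3.40 and still called without Nor 1, and the second lost its call without Nor 1 (−3.27), Nor 2 (−4.67) or Ver 2 (−4.17), the log2 fold change standing in parentheses. MSTRG.10391.3 and MSTRG.13727.1 were not called, with log2 fold changes of 1.72 and −2.78 (edgeR adjusted p = 0.175 and 0.138), but were called without Nor 2 (2.79) and without Ver 3 (−5.01), respectively. MSTRG.10391.3 was also called by DESeq2 (1.73) and by limma on log2(FPKM + 1) (2.24) and log2(FPKM + 0.1) (2.25), whereas the sum of its locus had a log2 fold change of −0.12. MSTRG.13727.1 was also called by DESeq2 (−2.78), by limma (−1.70 and −3.28), with the replicate block (−3.80) and in the fit of locus sums (−2.75). MSTRG.10356.2, MSTRG.16899.1 and MSTRG.26714.2 did not pass the count filter. MSTRG.16899.1 had 0 counts across the Nor libraries against 643, 0 and 715 across the Ver libraries.

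Circular RNAs (circRNAs), joined by back-splicing, overlapped far class u transcripts in 140 of 976 cases. All 140 were of the intergenic type, as were 437 of the 976. The choice of members far from listed mRNAs largely fixes that type, so it is no result about them. Of the 140, 97 lay wholly inside a member, and 57 of the 97 were read in 1 library only. Most came from the abundant loci MSTRG.16981 and MSTRG.16980 on A06. The one with the most junction reads, circRNA1004 of 141 bp inside MSTRG.16981, had 0, 0 and 525 reads across the Nor libraries against 0, 302 and 419 across the Ver libraries. circRNA442, of 146 bp in the same locus, had 41, 42 and 36 reads across the Nor libraries against 8, 16 and 25 across the Ver libraries, and circRNA448, inside MSTRG.16980, had 7, 10 and 13 across the Nor and 27, 24 and 25 in the Ver libraries. The latter 2 did not overlap between the groups, and they are examples only. Others that did not overlap include circRNA756 (34, 29 and 27 across Nor against 11, 17 and 17 across Ver) and circRNA201 (8, 10 and 12 against 4, 4 and 6). A further one was circRNA1130 (0 in every Nor library against 6, 2 and 2 across Ver). The share of all circRNAs that did so was not counted, and no test was run on circRNAs.

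Markers of the seed and of cold were read in the mRNAs of the same libraries. The summed FPKM of 17 mRNAs described as oleosins, the proteins that coat seed oil bodies, was 20.3 to 23.2 across the Nor libraries against 1046 to 1080 across the Ver libraries. That of 21 late embryogenesis abundant mRNAs was 65.7 to 71.5 against 416 to 422, that of 4 cruciferin mRNAs 11.9 to 13.4 against 128 to 133, and that of 13 napin or 2S seed storage mRNAs 56.8 to 59.9 against 281 to 307. COLD-REGULATED 15 (2 mRNAs) went from 0.0932 to 0.481 in the Nor to 195 to 239 in the Ver libraries, and FLC (5 mRNAs) from 33 to 37.7 down to 1.66 to 2.44. Not every mRNA of a list moved with its sum. Of 14 tested oleosins all 14 were called higher, and of 17 late embryogenesis abundant mRNAs 12 higher and 1 lower. Of 4 cruciferin mRNAs 3 were called higher and 1 lower, and of 11 napin or 2S mRNAs 5 higher and 2 lower. Only 2 of the 5 FLC mRNAs were tested, and both were called lower. The marker sums moved with the groups, and their part in the results for far class u transcripts was not tested. Fewer cells of a type and less RNA per cell cannot be told apart in such libraries.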

How the data were processed

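For 6 libraries (3 Nor, 3 Ver) the authors deposited an estimated count (expected count) and an FPKM value per linear transcript, and a back-splice junction count per circRNA. The authors used Cutadapt for trimming and Bowtie2 and TopHat2 for mapping (reference B. rapa v3.0), and assembled and quantified transcripts with StringTie and Ballgown, and the submitters' processing notes also name HISAT2. The totals of the deposited counts exceed the mapped read numbers that the study states, so that a total is not a depth. Versions are not given in the sources used here. An FPKM of 0 is written as 0.0001 in the deposited table. The authors' SRPBM values for circRNAs were not used.

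Far class u transcripts were found from class code, length and start and end columns. The table lists 57931 transcripts while its numbering runs to 70468, so the gap is to the nearest listed mRNA. The members, lists and rules for naming were chosen with earlier results of these data known. All transcripts were fitted together with edgeR 4.0.16 (R 4.3.3), by its quasi-likelihood F test of Ver against Nor after TMM scaling and the filterByExpr filter, with replicates not paired. A transcript is called where its log2 fold change exceeds 1 in size with a p, before adjustment, no larger than 0.05. Adjusted p (Benjamini-Hochberg) of transcripts are over the 49351 tested. The SE is the absolute log2 fold change divided by the square root of F. Normalized counts are counts scaled to the mean effective library size. Locus sums add the counts of all transcripts of a locus and were fitted the same way, with their adjusted p over the 32467 loci tested.

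Named are the 10 largest rises and 10 largest falls that pass adjustment at 0.05, whose groups do not overlap and that have at least 30 normalized counts in the higher group, the 5 highest in mean FPKM, the 3 largest gaps, the 3 with most exons and 2 longest, members in the study's network or primer tables, up to 6 members near 0 in 1 group, the nearest mRNAs and the members next to the gap threshold. Locus leaders, microRNA genes and described neighbours were chosen after values were seen. No p is given for a sum or median over members. Alternatives were RLE factors, no composition factors, DESeq2 1.42.0, a robust fit, limma 3.58.1 on log2(FPKM + 1) and log2(FPKM + 0.1), other filters, a replicate block, locus sums, other gaps and lengths, and each library left out, with 2 more added after seeing the data. The RefSeq table gives gene bounds and biotypes only.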

Additional observations from a re-analysis of the deposited data

How the results depend on the processing

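The number of called far class u transcripts stayed within 1.5 times of 391 with RLE factors, without composition factors, with DESeq2 (433), a robust fit, limma on log2(FPKM + 0.1), no filter, adjusted p, a smaller gap, a larger length and a gap to any other class. By locus sums 321 were called, but these are loci and not transcripts. Of the 391 called members, 354 had a locus sum that was called the same way. With each library left out it ran from 354 to 381, of which 323 to 336 were shared with the 391. It was 172 (85 higher, 87 lower) with limma on log2(FPKM + 1), which understates changes of low transcripts, 234 (109 and 125) at a mean CPM of at least 1, 214 (105 higher, 109 lower) at a gap above 5000 bp and 88 (41 and 47) above 10000 bp. With a given strand only it was 254, with 119 higher. The last 3 sets hold fewer members, and the filter on mean CPM leaves out members with low counts. Of the 2 alternatives added after seeing the data, leaving out members over a RefSeq protein-coding gene gave 174 (116 higher, 58 lower). This removed 731 of the 1432 tested members, so 174 is not out of the same number as 391. Leaving out loci with 10 or more members, also a smaller set, gave 344 (197 and 147). No listed chromosome lacked an mRNA, so that keeping such members changed nothing.

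Same-numbered libraries were not correlated in their deviations from the group means (0.006, 0.009 and 0.002). This cannot settle whether the numbers pair dishes, since paired dishes need not share a deviation, and the main fit did not pair them. A fit with the replicate block gave 344 calls (165 and 179), of which 332 were shared with the 391.

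By locus sums, 7 named members changed sign: MSTRG.1934.1 (−0.04), MSTRG.4248.3 (0.74), MSTRG.6925.2 (0.00), MSTRG.10066.6 (−0.39), MSTRG.18781.5 (0.74), MSTRG.21946.4 (−0.02) and MSTRG.29218.3 (0.18). The locus sum adds the other isoforms. The mean difference in the number detected, Ver minus Nor, was −7.67. It was 5.67 at 10 or more counts and ran from −15.0 to 0.833 with a library left out, with the positive value without Nor 1. The median FPKM of far minus nearer class u transcripts was −0.246, and −0.125 for single-exon and −0.307 for multi-exon transcripts. The share of counts differed by −0.851 percentage points, and by −1.07 to −0.496 with a library left out.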
